A study of Mus musculus with 24 samples.

Results

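This comparison sets the 2 mouse retina libraries of embryonic day 12 (E12) against the 2 of embryonic day 11 (E11). They are 4 of the 24 libraries of a developmental series that covers 12 ages in duplicate. All 4 come from whole retina of the strain C57/Bl6N with no treatment and no engineered allele named, and each was made from 100 ng of total RNA, less than was used for the later ages. The labels name no litters, pools, sex or sequencing batches, and do not say whether replicates were separate embryos. The p-values therefore reflect only the spread between replicate libraries. That spread was estimated from all 24 libraries of the series, and replicates of every other age lay closer together than those of E11. All 4 libraries held both Xist and Y-linked RNA. The Y-linked Kdm5d had 94.0 and 39.3 CPM in the E12 replicates and 77.2 and 26.3 CPM in the E11 replicates, so replicates differed in their mix of sexes. How much of the spread is technical was not tested.

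The retina forms as the inner layer of a cup that grows out of the forebrain and touches the surface ectoderm, which folds inward as the lens. Its first cells are dividing progenitors. Neurons then begin to leave the cell cycle near the centre of the cup, retinal ganglion cells ahead of the others, under proneural transcription factors and the Notch pathway, by which a neuron-to-be holds its neighbours in the progenitor state. E11 and E12 stand at the opening of this process.

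The deposited values were estimated read counts per gene, with 27773946 and 30366206 counts in E12 replicates 1 and 2, against 32094218 and 32902912 in E11 replicates 1 and 2. Levels are given as depth-scaled counts (CPM) after TMM scaling, and changes as the fitted log2 of E12 over E11 with its standard error (SE). A gene was called where the Benjamini-Hochberg adjusted p of the edgeR quasi-likelihood test was under 0.05 and the change was at least 2-fold. The 21 eye field and progenitor genes measured here summed to 5340 and 5000 CPM in the E12 libraries, against 4450 and 4210 CPM in the E11 libraries, so the label of retina fits their markers.

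The libraries within each age were not alike, and this bears on every result below. Lens genes were abundant in E12 replicate 2 and E11 replicate 1 and scarce in the other library of each age. E11 replicate 2 had the most red cell and surface ectoderm RNA and the lowest sums of neurogenic and ganglion cell genes, 102 and 141 CPM. Between the E11 replicates, 183 of 8385 genes of at least 20 CPM (2.18%) differed by 2-fold or more, against 68 of 8058 (0.844%) between the E12 replicates, while the other 10 ages had at most 0.412%. On the leading principal component, which held 76.8% of the variance among the 4 libraries, E12 replicates 1 and 2 lay at -31.6 and -20.0 and E11 replicates 1 and 2 at 7.44 and 44.2. On it the step between the E11 replicates was longer than the step between E12 replicate 2 and E11 replicate 1.

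At E12 the retina had more RNA of newborn neurons, above all of ganglion cells, and less RNA of primitive red cells and surface ectoderm than at E11. Periocular mesenchyme genes were lower too, with a list median of -1.44 that lay between -1.74 and -0.73 when 1 library was left out. Neurofilament genes were more than 10-fold higher, embryonic globins several-fold lower, and the genes that mark the progenitors stayed within 2-fold, except Nr2e1. In bulk tissue fewer cells of a type, less RNA per cell and unequal tissue amounts at dissection cannot be told apart. Of 21858 genes tested, 1749 (8.00%) were called, 892 (4.08%) higher and 857 (3.92%) lower at E12, and the median log2 change of all genes was -0.01. Of the called genes, 599 of those higher and 737 of those lower were protein coding, and 129 and 235 reached a mean of 20 CPM in the stage where they were higher.

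**Figure D1:**
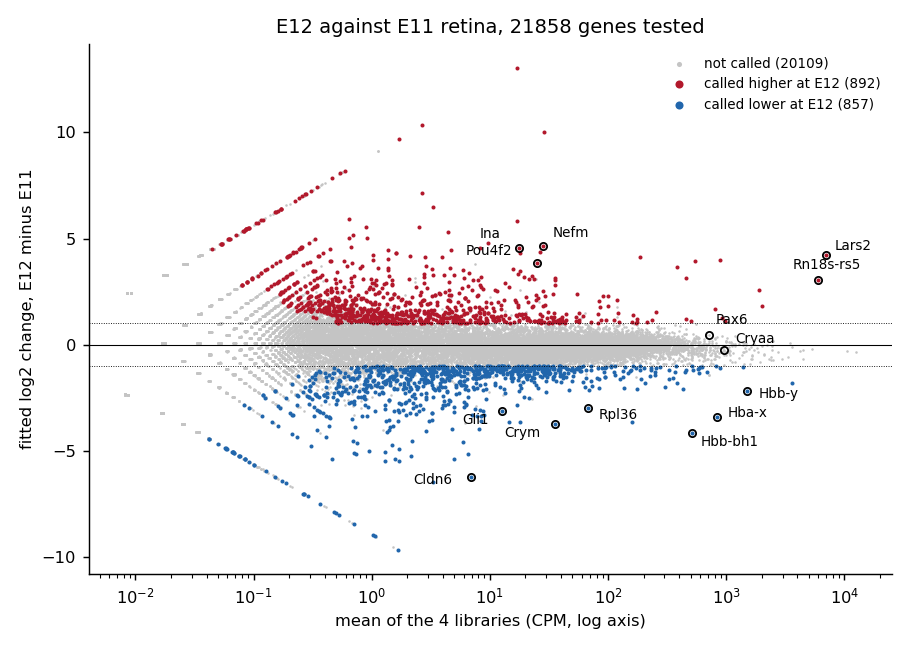
Fitted log2 change of E12 over E11 (vertical axis) against the mean of the 4 libraries in CPM (horizontal log axis) for the 21858 genes tested. Red points are the 892 genes called higher at E12, blue points the 857 called lower, grey points the rest, and dotted lines mark 2-fold. Points on the slanting lines at the left have no or few counts in 1 age, where the fitted change is no measure of size; circled genes are named in the text.

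The number of called genes depended on which libraries were used. It was 716 without E11 replicate 2 and 744 without E12 replicate 1, against 3021 without E11 replicate 1 and 2361 without E12 replicate 2. With the spread estimated from the E11 and E12 libraries only, which leaves 2 residual degrees of freedom, edgeR called 7 genes, of which 6 were higher at E12 and 3481 genes had an unadjusted p under 0.05. With the library total as the only scaling the split was 1042 higher and 670 lower, and the median of all genes moved to 0.06. Of the 892 genes called higher, 878 had both E12 libraries above both E11 libraries, and of the 857 called lower, 833 had both E12 libraries below. The same 4 libraries chose these genes, so this order largely follows from the calling, and its share among all genes was not counted. E11 replicate 2 was the lowest of the 4 libraries for 74.2% of the genes called higher and the highest for 85.6% of those called lower, against 29.5% and 35.8% of all genes tested. E12 replicate 1 was the highest for 76.5% of the genes called higher, against 31% of all genes tested. It was the lowest for 76.9% of those called lower, against 34.5% of all genes tested.

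**Figure D2:**
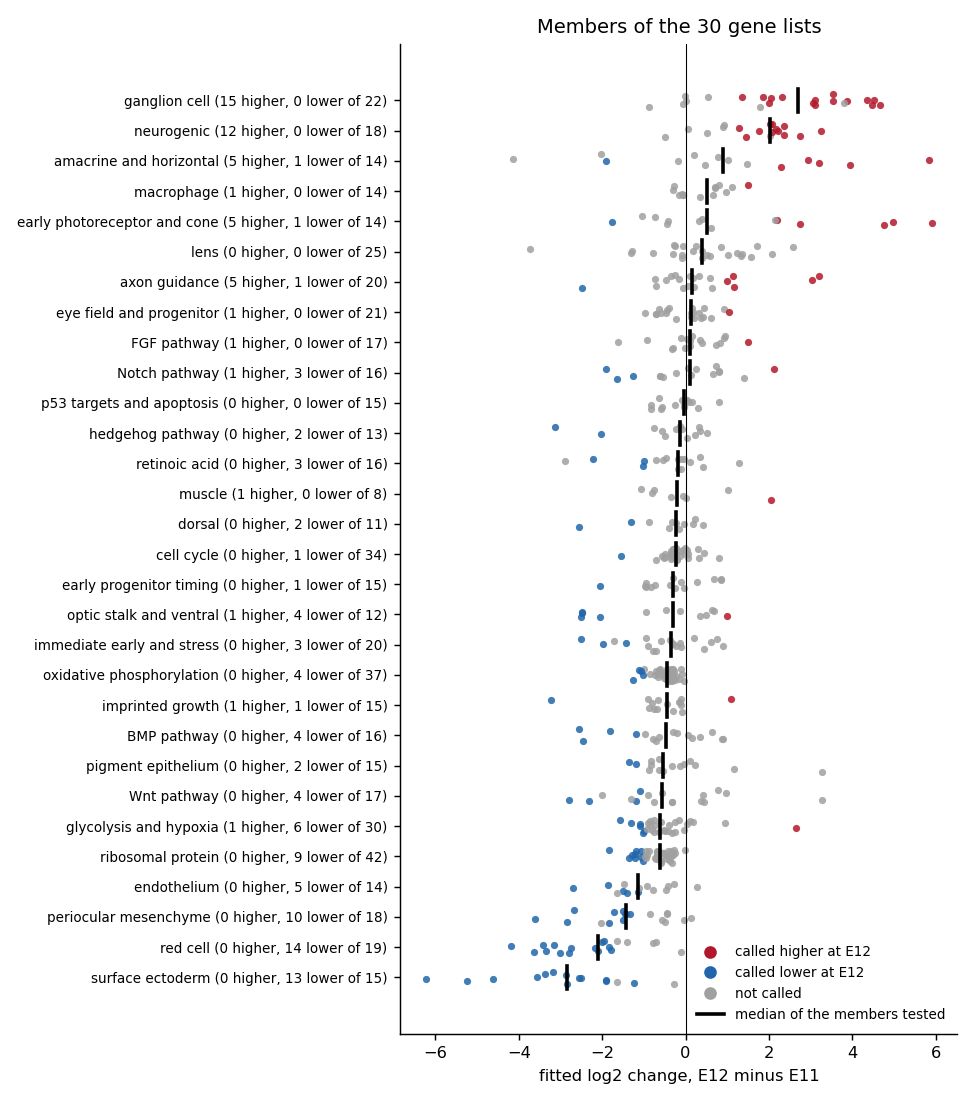
Fitted log2 change of E12 over E11 for every tested member of each gene list, 1 point per gene, with the median as a black bar. Red and blue points are genes called higher and lower at E12; the ganglion cell and neurogenic lists lie at the top, with medians of 2.69 and 2.02, and the surface ectoderm and red cell lists at the bottom, with medians of -2.85 and -2.09.

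Genes of newborn ganglion cells made up the clearest rise. Of 22 ganglion cell genes tested, 15 rose at E12, none was called lower, and the list's median log2 change was 2.69. Nefm, the medium neurofilament subunit (chromosome 14, 68082590 to 68124846, GRCm38), had 77.0 and 31.9 CPM in the E12 libraries, against 2.30 and 1.99 CPM in the E11 libraries. Its log2 change was 4.66 (SE 0.30, adjusted p = 2.03e-07), and both E12 libraries lay far above both E11 libraries. Ina, the internexin subunit of the same filaments, had 48.1 and 20.2 CPM at E12, against 1.97 and 0.960 CPM at E11 (log2 change 4.53, SE 0.33, adjusted p = 8.38e-07). Nefl, the light subunit, had 38.3 and 19.04 CPM at E12, against 3.42 and 1.47 CPM at E11 (log2 change 3.54, SE 0.29). For all 3 filament genes E12 replicate 1 was the higher of the E12 libraries, and the groups did not overlap.

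The transcription factors that direct the ganglion cell programme rose with them. Pou4f2, which acts in ganglion cell differentiation and survival, had 58.9 and 35.8 CPM at E12, against 6.44 CPM in E11 replicate 1 and 0 counts in E11 replicate 2 (log2 change 3.86, SE 0.65, adjusted p = 0.000749). Isl1, a LIM homeodomain factor that works beside it, had 51.3 and 33.7 CPM at E12, against 9.16 and 0.617 CPM at E11 (log2 change 3.11, SE 0.53). For both genes the fold between the E11 libraries was wider than that between E11 replicate 1 and the E12 libraries. Pou4f1, a relative of Pou4f2 in ganglion cells, had 10.7 and 7.26 CPM at E12, against 2.201 and 2.74 CPM at E11, with the E11 libraries close together (log2 change 1.86, SE 0.17). Ebf1 and Ebf3, factors of newborn neurons, rose by 1.35 and 1.998 on the log2 scale.

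Cytoskeletal and RNA-binding genes of new neurons rose as well. Dcx, which binds microtubules in migrating and growing neurons, had 68.8 and 32.1 CPM at E12, against 4.43 and 0.446 CPM at E11 (log2 change 4.35, SE 0.48). Stmn2, a tubulin regulator of growth cones, had 44.8 and 31.8 CPM at E12, against 8.54 and 0.274 CPM at E11 (log2 change 3.11, SE 0.57). Tubb3, the neuronal beta tubulin, had 159 and 111 CPM at E12, against 47.6 and 17.05 CPM at E11 (log2 change 2.06, SE 0.30). Elavl4, an RNA-binding protein of neurons, rose by 3.06, Cntn2, an axonal adhesion protein, by 2.32, and Sncg, a synuclein of ganglion cells, by 3.54. Gap43, a growth cone protein, had 41.9 and 28.7 CPM at E12 and 28.8 and 20.1 CPM at E11 and was not called, and neither were L1cam and Rbpms, whose levels overlapped between the ages. Of the 15 called ganglion cell genes, 12 had less RNA in E11 replicate 2 than in E11 replicate 1, and all 15 had more in E12 replicate 1 than in E12 replicate 2. Without E11 replicate 2, 14 ganglion cell genes were called higher, and without E12 replicate 1, 13.

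**Figure D3:**
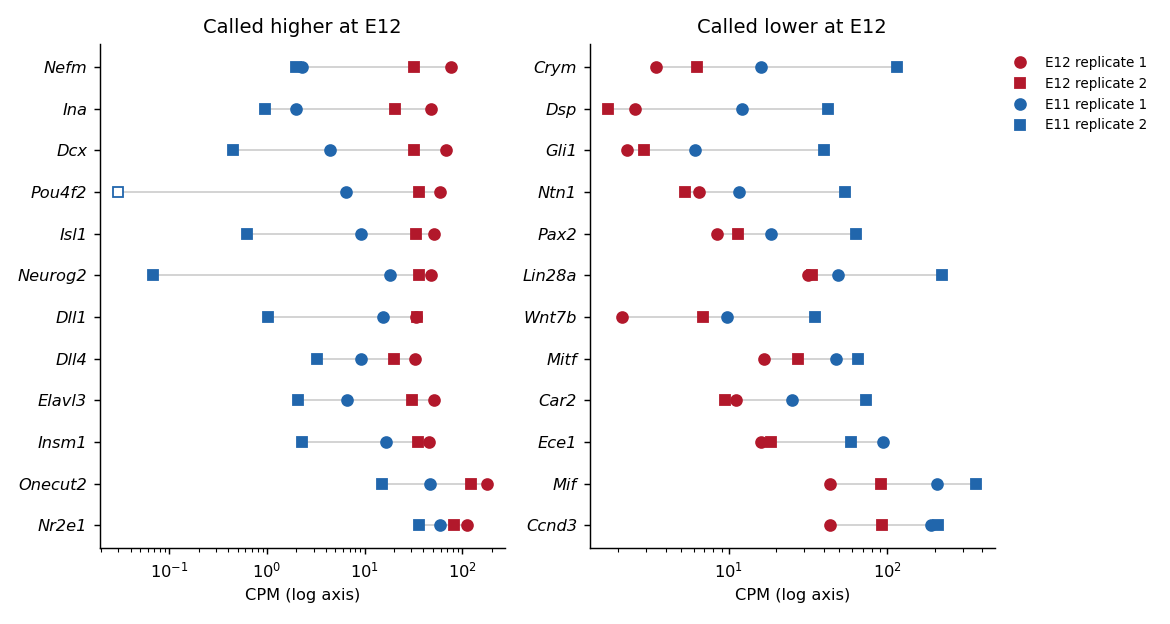
Level of 12 genes called higher (left) and 12 called lower (right) at E12 in each of the 4 libraries, in CPM on a log axis. Red symbols are E12 and blue symbols E11, circles replicate 1 and squares replicate 2; the open square stands for Pou4f2 with 0 counts in E11 replicate 2, drawn at the left end. In most genes the E11 circle lies between the E11 square and the E12 symbols.

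The promoters of Ina and Isl1 are shown because both genes rose and both windows hold the sequence CAGCTG, an E-box of the kind that proneural bHLH factors bind. The windows run 250 bases before to 50 after the start of transcription and come from RefSeq (GRCm38.p6), Ina from chr19:47014431-47014730 on the plus strand and Isl1 from chr13:116309639-116309938 on the minus strand, with the E-box in capitals. It begins 135 bases before the start in Ina and 103 bases before it in Isl1. The same letters occur in 5355 of 32851 promoter windows (16.3%), so their presence is a description of these windows and not a binding site.
Ina: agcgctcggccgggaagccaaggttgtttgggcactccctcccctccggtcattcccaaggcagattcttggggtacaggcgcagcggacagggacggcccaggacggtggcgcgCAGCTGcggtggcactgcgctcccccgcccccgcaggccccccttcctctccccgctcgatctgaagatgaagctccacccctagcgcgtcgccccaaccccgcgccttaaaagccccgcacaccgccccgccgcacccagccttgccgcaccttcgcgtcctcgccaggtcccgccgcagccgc
Isl1: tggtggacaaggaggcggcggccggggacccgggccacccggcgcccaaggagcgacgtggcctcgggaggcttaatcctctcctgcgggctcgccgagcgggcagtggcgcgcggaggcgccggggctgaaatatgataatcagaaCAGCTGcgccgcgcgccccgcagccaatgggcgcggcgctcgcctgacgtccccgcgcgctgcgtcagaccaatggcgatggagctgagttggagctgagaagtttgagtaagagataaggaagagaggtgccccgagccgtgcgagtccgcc

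Genes that start neurogenesis also rose. Of 18 neurogenic genes, 12 were called higher and none lower, with a median log2 change of 2.02. Neurog2, a proneural bHLH factor, had 47.6 and 35.7 CPM at E12, against 18.2 CPM in E11 replicate 1 and 0.0686 CPM in E11 replicate 2. Its log2 change was 2.18 (SE 0.75, adjusted p = 0.0457), and it was 1.19 without E11 replicate 2. Its E11 libraries were far apart, and both lay below both E12 libraries. Atoh7, the bHLH factor that makes progenitors competent to become ganglion cells, had 2.46 and 5.26 CPM at E12, against 4.01 and 0.0686 CPM at E11, and was not called (log2 change 0.92, SE 0.76, adjusted p = 0.416). Its E11 replicate 1 lay between the E12 libraries, and E11 replicate 2 stood alone.

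Further genes of the step between progenitor and neuron had the same pattern. Dll1 and Dll4, the Notch ligands of newborn neurons, had 33.9 and 34.1 CPM and 32.7 and 20.1 CPM at E12, against 15.6 and 1.03 CPM and 9.23 and 3.22 CPM at E11. They rose by 2.03 and 2.08 on the log2 scale. Neurod4, Insm1, Gadd45a, Btg2, Mfng, Olig2, Dll3 and Elavl3 were also called higher, with log2 changes between 1.27 for Btg2 and 3.24 for Elavl3, an RNA-binding protein of early neurons. Neurod1, with 48.5 and 35.2 CPM at E12 against 20.4 and 0.0686 CPM at E11, missed the adjusted p threshold (adjusted p = 0.0547). All 12 called members were lower in E11 replicate 2 than in E11 replicate 1. Leaving out E11 replicate 2 took the list's median to 1.15 with 10 members called, leaving out E11 replicate 1 took it to 3.54 with 16, and leaving out E12 replicate 1 took it to 1.77 with 9.

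The Notch pathway itself was mixed, with 1 of 16 genes called higher, 3 lower and a median of 0.10 that was -0.14 without E12 replicate 1. Heyl, a target of Notch signalling, had 7.59 and 7.02 CPM at E12, against 3.02 and 0.309 CPM at E11 (log2 change 2.12, SE 0.50). Jag2, a ligand, fell by 1.90, Nrarp, a feedback inhibitor, by 1.64, and Hey2, another target, by 1.27 on the log2 scale. Hes1 and Hes5, the main effectors in the retina, were not called. Hes5 had 4.69 and 9.03 CPM at E12, against 4.24 and 0.960 CPM at E11, and Hes1 had 77.5 and 78.3 CPM at E12, against 71.5 and 110 CPM at E11.

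Factors of amacrine and horizontal cells, the interneurons born in the same period, gave 5 of 14 genes called higher, 1 lower and a median of 0.91. The median was 0.33 with 3 called higher without E11 replicate 2, and 2.32 with 8 called higher without E11 replicate 1. Onecut1 and Onecut2, factors of horizontal and ganglion cells, had 14.6 and 15.8 CPM and 177 and 124 CPM at E12, against 3.15 and 0.137 CPM and 46.8 and 15.2 CPM at E11. Onecut1 rose by 3.19 and Onecut2 by 2.28 on the log2 scale. Ptf1a, which directs both cell types, had no counts at E11 and 0.330 and 0.136 CPM at E12, an at least 4.55-fold rise against a floor of 3 counts over the E11 libraries. Foxn4, which acts before Ptf1a, had 104 and 85.5 CPM at E12, against 62.5 and 5.66 CPM at E11, and was not called (adjusted p = 0.0849). Tfap2a was the member called lower, with 2.13 and 2.78 CPM at E12 against 4.66 and 13.8 CPM at E11. It is also a surface ectoderm gene and stands on that list too.

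Among early photoreceptor and cone genes, 5 of 14 were called higher and 1 lower, with a median of 0.50. The median lay between 0.41 and 0.95 when 1 library was left out. With voom and a weight per stage, 1 was called higher and none lower, and the calls of Pdc, Rcvrn, Nrl and Arr3 were lost. Prdm1, a repressor that keeps new photoreceptors from the bipolar fate, had 12.7 and 7.33 CPM at E12, against 1.74 and 2.64 CPM at E11 (log2 change 2.19, SE 0.22). Otx2, which commits cells to the photoreceptor fate and also serves the pigment epithelium, had 76.1 and 60.6 CPM at E12, against 72.1 and 156 CPM at E11, and was not called. The other 4 genes called higher, Pdc, Rcvrn, Nrl and Arr3, are photoreceptor genes with at most 1.54 CPM in any of the 4 libraries. Mean levels of Pdc and Nrl were higher again at E14, at 4.18 and 0.996 CPM, while those of Rcvrn and Arr3 were lower than at E12. Nrl had no counts at E11 and rose at least 2.45-fold against the same floor. Rxrg, a nuclear receptor of cones, fell by 1.77 on the log2 scale.

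Low counts of genes of mature rods were found in the E12 libraries. Prph2, which shapes the discs of the outer segment, had 2.38 and 1.12 CPM in the E12 libraries, against 0.0328 and 0.0343 CPM in the E11 libraries. Pde6a, Pde6b, Prph2 and Slc24a1, which encode parts of the rod outer segment, were at 0.0469%, 0.0462%, 0.0446% and 0.0414% of their P28 means at E12. Of 23 genes with at least 500 CPM at P28 and under 2 CPM at E11 and E14, 10 were called higher at E12, and the median over the 23 of E12 as a share of P28 was 0.0534%, against 0.0215% for E11. These genes and limits were chosen after their values were seen. Of the genes called higher, 11 of the 892 genes called higher had an E12 mean of at most 0.1% of the P28 mean. Over the same 23 genes the median share was 0.0590% in E12 replicate 1 and 0.0415% in E12 replicate 2, so these low values stood in a like ratio to the P28 level in both. Whether the RNA was made in the E12 retina or was carried over from samples of later ages was not tested.

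The genes that define the retinal progenitor gave a single call. Of 21 eye field and progenitor genes, 1 was called higher and none lower, and the median log2 change was 0.13. Pax6, the paired homeodomain factor of the eye field, had 828 and 814 CPM at E12, against 758 and 445 CPM at E11 (log2 change 0.45, SE 0.16). Six6 had 240 and 258 CPM at E12, against 233 and 215 CPM at E11, with a log2 change of 0.15 (SE 0.09). Nr2e1, an orphan receptor that keeps progenitors dividing, was the member that rose, with 112 and 82.9 CPM at E12 against 58.4 and 35.8 CPM at E11 (log2 change 1.05, SE 0.20), a call that was lost without E11 replicate 2 and without E12 replicate 1. Sox2 and Fgf15 passed the adjusted p but not 2-fold, with log2 changes of 0.60 and 0.92, and Rax, Lhx2, Id1, Id2 and Id3 passed it in the other direction, with -0.71, -0.45, -0.70, -0.63 and -0.97.

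Cell cycle genes gave 1 call among 34, with a median of -0.24. Mki67 had 1165 and 1079 CPM at E12 and 983 and 835 CPM at E11, and was not called. Ccnd1, the cyclin of retinal progenitors, had 783 and 782 CPM at E12, against 707 and 443 CPM at E11, and was not called either. Ccnd3 fell, with 43.4 and 92.7 CPM at E12 against 189 and 210 CPM at E11 (log2 change -1.55, SE 0.29). With gene values summed from the transcript estimates its change was -0.66 and the call was lost. Genes of the p53 response and of apoptosis gave no call among 15, with a median of -0.03 that was 0.05 with the library total as the only scaling.

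Of the genes of early progenitor timing, Lin28a was the one called lower at E12. Lin28a, an RNA-binding protein that blocks let-7 maturation, had 31.8 and 33.5 CPM at E12, against 48.8 CPM in E11 replicate 1 and 222 CPM in E11 replicate 2. It fell by 2.06 on the log2 scale (SE 0.47, adjusted p = 0.00528), and by 0.58 without E11 replicate 2, with the call lost, as it was without E12 replicate 1. Its relative Lin28b, Hmga1 and Hmga2, chromatin proteins of early progenitors, had log2 changes of -0.95, -0.95 and -0.72, which passed the adjusted p but not 2-fold. Over the 15 genes of the list that were tested the median was -0.30, and 0.13 without E11 replicate 2. Without E12 replicate 2 and without E11 replicate 1, 4 and 5 of them were called lower. Crym, which codes for a thyroid hormone binding protein, had 3.45 and 6.31 CPM at E12, against 16.06 and 116 CPM at E11, the largest fall among abundant genes outside the lens, red cell and ectoderm lists (log2 change -3.75, SE 0.57). It was still called without E11 replicate 2, at -1.72.

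Patterning genes of the optic stalk and ventral retina included 4 called lower and 1 higher among 12, with a median of -0.31. Pax2, the paired factor of the optic stalk, had 8.47 and 11.4 CPM at E12, against 18.4 and 63.8 CPM at E11 (log2 change -2.05, SE 0.36). Vax1, which acts with it, had 0.734 and 1.02 CPM at E12, against 2.66 and 7.13 CPM at E11. Ntn1, the netrin that guides ganglion cell axons out of the eye, had 6.46 and 5.33 CPM at E12, against 11.7 and 53.9 CPM at E11 (log2 change -2.48, SE 0.43). Cdh1, an epithelial cadherin on this list, was the remaining fall, and it also stands on the surface ectoderm list. In Pax2, Vax1 and Ntn1, E11 replicate 2 was the highest library by far, and without it no member of the list was called lower. Smoc1, a secreted BMP antagonist, had 51.3 and 50.8 CPM at E12 against 23.5 and 27.3 CPM at E11, and rose by 1.01. Vax2, the ventral homeodomain factor, and Aldh1a3, a ventral retinoic acid synthase, were not called.

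Dorsal and retinoic acid genes had small median changes, but each list had a larger share called lower than the 3.92% of all genes tested. Bmp4, the dorsal signal, fell by 2.56 on the log2 scale, with 1.69 and 3.70 CPM at E12 against 7.06 and 24.9 CPM at E11, and Msx2, its target, fell by 1.31. These were the 2 calls among 11 dorsal genes, whose median was -0.23. Aldh1a1, the dorsal retinoic acid synthase, had 2119 and 2212 CPM at E12, against 3050 and 1404 CPM at E11, so that the E11 libraries bracketed those of E12. Of 16 retinoic acid genes 3 fell, namely Cyp26b1, Dhrs3 and Rarb, with a list median of -0.18. None of the dorsal and retinoic acid calls held without E11 replicate 2 or without E12 replicate 1.

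Among signalling pathways, the hedgehog, BMP and Wnt lists each had a larger share called lower than the 3.92% of all genes tested. The hedgehog list had 2 genes lower of 13 and a median of -0.12. Gli1, the factor and read-out of hedgehog signalling, had 2.27 and 2.92 CPM at E12, against 6.11 and 39.7 CPM at E11 (log2 change -3.13, SE 0.54), and its mean was 94.0 CPM at E14. Ptch1, the main receptor, overlapped between the ages and was not called. In the BMP list 4 of 16 genes fell, namely Bmp4, Bmp7, Nog and Grem1, with a median of -0.47. Wnt genes had 4 of 17 lower, namely Wnt7b, Wnt2b, Rspo2 and Fzd8, and a median of -0.57. Without E12 replicate 1, 2 BMP genes and 1 Wnt gene were called lower. Without E11 replicate 2 no BMP or Wnt gene was called, and Gli1 was the sole hedgehog call, at -1.23. The FGF list had 1 gene higher of 17, Fgf3, with 5.10 and 3.26 CPM at E12 against 1.05 and 1.92 CPM at E11, and a median of 0.12.

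Axon guidance genes gave 5 higher and 1 lower of 20, with a median of 0.14. Dcc, the netrin receptor of growing axons, had 42.7 and 27.1 CPM at E12, against 6.73 and 0.789 CPM at E11 (log2 change 3.20, SE 0.46). Its ligand Ntn1 was the gene called lower. Robo2, a Slit receptor of ganglion cell axons, had 59.3 and 45.2 CPM at E12, against 23.0 and 24.04 CPM at E11, where the replicates were alike (log2 change 1.15, SE 0.14), a call that was lost without E12 replicate 1 and with summed transcript estimates. Without E12 replicate 1, 2 of the list's genes were called higher. Slit1, a ligand of the Robo receptors, and Epha3 and Epha5, receptors for ephrins, rose by 3.03, 1.004 and 1.15. Srrm4, a splicing factor of neurons, Myt1, a zinc finger factor of neuronal differentiation, and Dlx1, a homeodomain factor of ganglion cells and interneurons, were also among the 14 largest rises, at 3.14, 3.46 and 3.33. All 3 were below 0.21 CPM in E11 replicate 2 and above 5 CPM in E11 replicate 1.

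Lens genes differed between the libraries of each age, and no difference between the ages was detectable. None of the 25 tested was called, with a median log2 change of 0.39. They summed to 298 CPM in E12 replicate 1 and 3600 CPM in E12 replicate 2, against 3630 CPM in E11 replicate 1 and 87.7 CPM in E11 replicate 2. Cryaa, the alpha A crystallin of lens fibres, had 95.7 and 1652 CPM at E12, against 2082 and 3.50 CPM at E11 (log2 change -0.25, SE 1.87). Cryba1, a beta crystallin, had 88.2 and 946 CPM at E12, against 728 and 0.926 CPM at E11 (log2 change 0.51, SE 1.61), and Mip, the lens aquaporin, 14.9 and 150 CPM at E12, against 68.4 and 1.85 CPM at E11. Counts of near-identical gamma crystallins may be split between copies and are uncertain one by one.

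The sign of the lens change depended on the libraries. The list's median was 4.56 with 7 genes called higher without E11 replicate 1, and 1.14 with none called without E12 replicate 1. It was -1.93 with 2 called lower without E12 replicate 2, and -0.50 with none called without E11 replicate 2. Standard errors of the 16 crystallin genes ran between 0.97 for Cryab and 1.92 for Crygf on the log2 scale, so a change of several-fold between the ages was not detectable in this design. Lens counts made up 0.0293% and 0.350% of the E12 libraries, against 0.345% and 0.00787% of the E11 libraries. With lens and red cell genes taken out before scaling, 1737 genes were called, of which 896 were higher and 841 lower. The neurogenic list summed to 626 and 484 CPM at E12, where replicate 2 was the lens-rich library, and to 264 and 102 CPM at E11, where replicate 1 was. The part of lens RNA in other changes was not tested.

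**Figure D4:**
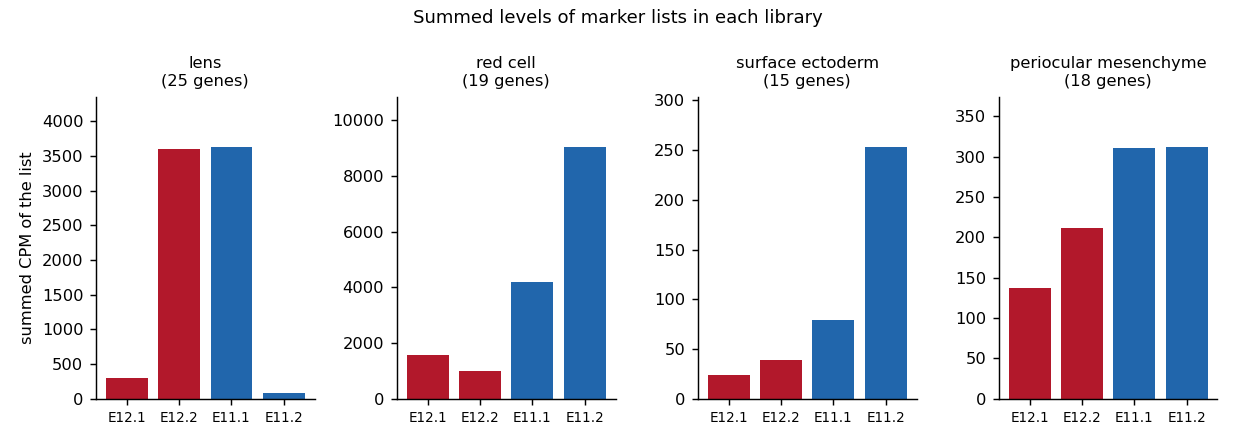
Summed CPM of the tested members of the lens, red cell, surface ectoderm and periocular mesenchyme lists in each library, E12 in red and E11 in blue, with an axis of its own from 0 for each list. Lens sums are high in E12 replicate 2 and E11 replicate 1 (3600 and 3630 CPM), and red cell and surface ectoderm sums are highest in E11 replicate 2 (9040 and 253 CPM).

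Red cell genes were lower at E12 in both libraries. At these ages the circulating cells are mostly primitive erythroblasts of the yolk sac, which use embryonic globin chains. Of 19 red cell genes tested, 14 fell and none was called higher, and all 19 had negative changes, with a median of -2.09. Their sum was 1580 and 996 CPM in the E12 libraries, against 4180 and 9040 CPM in the E11 libraries. In contrast to the lens sums, the groups did not overlap.

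All 3 embryonic globins of the list fell. Hbb-bh1, an embryonic beta chain, had 67.1 and 39.4 CPM at E12, against 239 and 1708 CPM at E11 (log2 change -4.19, SE 0.77). Hba-x, the embryonic zeta chain, had 163 and 122 CPM at E12, against 709 and 2351 CPM at E11 (log2 change -3.43, SE 0.47). Hbb-y, the epsilon chain, had 713 and 378 CPM at E12, against 1901 and 3050 CPM at E11 (log2 change -2.18, SE 0.36). Both E11 libraries lay above both E12 libraries for each chain, and the E11 replicates differed by about 7-fold for Hbb-bh1 but under 2-fold for Hbb-y. Means at E14 were lower again, at 1.02, 15.8 and 83.0 CPM.

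Adult globin genes were also lower. Hba-a1 and Hba-a2, the near-identical adult alpha chains, had 22.2 and 24.8 CPM and 215 and 111 CPM at E12, against 215 and 371 CPM and 551 and 842 CPM at E11. Hba-a1 fell by 3.64 (SE 0.41) and Hba-a2 by 2.09 (SE 0.38). Hbb-bt, an adult beta chain, fell by 1.97 (SE 0.45), and its copy Hbb-bs, with 49.7 and 23.8 CPM at E12 against 65.7 and 60.6 CPM at E11, was not called. Reads of such copies cannot be assigned with certainty, so the single values are uncertain. Klf1 and Gata1, the erythroid transcription factors, fell by 2.80 and 3.01, and Epb42, a membrane protein of red cells, by 2.003. Tfrc, the transferrin receptor that all dividing cells use, had 223 and 192 CPM at E12 and 203 and 248 CPM at E11 and was not called. Without E11 replicate 2, 7 of the 19 were called lower and the median was -1.51. Without E12 replicate 1, 10 were called and the median was -2.52.

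The promoters of 2 embryonic globins that fell together are shown, Hba-x (RefSeq, GRCm38.p6, chr11:32276350-32276649, plus strand) and Hbb-y (chr7:103853158-103853457, minus strand), over the same window of 300 bases. Capitals mark AGATAA or TGATAA on either strand, the core of the site for GATA factors such as Gata1. The match begins 108 bases before the start of transcription in Hba-x and 162 bases before it in Hbb-y, where it lies on the other strand. Of all 32851 promoter windows 6115 (18.6%) hold either form, so the matches describe the windows and show no binding.
Hba-x: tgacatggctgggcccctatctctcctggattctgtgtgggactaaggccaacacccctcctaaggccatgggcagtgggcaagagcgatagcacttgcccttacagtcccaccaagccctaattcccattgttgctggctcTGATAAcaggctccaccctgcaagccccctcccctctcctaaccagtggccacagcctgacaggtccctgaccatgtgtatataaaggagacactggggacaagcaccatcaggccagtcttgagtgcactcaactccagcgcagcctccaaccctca
Hbb-y: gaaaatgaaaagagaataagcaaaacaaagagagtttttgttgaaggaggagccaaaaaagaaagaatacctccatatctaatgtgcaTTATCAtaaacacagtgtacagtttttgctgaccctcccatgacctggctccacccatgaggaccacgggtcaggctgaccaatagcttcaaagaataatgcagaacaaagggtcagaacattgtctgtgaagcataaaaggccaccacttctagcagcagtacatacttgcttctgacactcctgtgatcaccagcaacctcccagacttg

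Surface ectoderm genes had the deepest fall of any list. Of 15 tested, 13 fell and all had negative changes, with a median log2 change of -2.85. They summed to 24.2 and 38.6 CPM in the E12 libraries, against 79.0 and 253 CPM in the E11 libraries. Cldn6, a claudin of embryonic epithelia, had 0.220 and 0.136 CPM at E12, against 2.07 and 25.2 CPM at E11 (log2 change -6.23, SE 1.24). Trp63, the master factor of stratified epithelium, had 0.403 and 0.509 CPM at E12, against 1.61 and 21.06 CPM at E11 (log2 change -4.62, SE 0.96). Krt8 and Krt18, the paired keratins of simple epithelia, fell by 3.38 and 1.92, and Dsp, the desmosomal plaque protein, outside the list, by 3.66. Cdh1, the epithelial cadherin, had 1.80 and 10.9 CPM at E12, against 17.1 and 55.3 CPM at E11. E11 replicate 2 was the higher of the E11 libraries in 12 of the 13, and without it 6 were called, with a median of -1.47. Without E12 replicate 1, 8 were called.

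Genes of the periocular mesenchyme, the neural crest and mesoderm around the cup, gave 10 of 18 lower and a median of -1.44. The sums were 137 and 212 CPM at E12, against 311 and 312 CPM at E11. Foxc1 and Prrx1, factors of this tissue, had 5.17 and 5.77 CPM and 9.02 and 14.5 CPM at E12, against 8.05 and 19.4 CPM and 18.98 and 44.0 CPM at E11. Pdgfra, the receptor of mesenchymal cells, fell by 1.496. The collagens Col1a1, Col1a2 and Col3a1 were not called, and their E11 replicate 2 values lay within or below those of E12. Without E11 replicate 2, 2 members were called and the median was -0.73, and without E12 replicate 1 none was called and it was -1.01.

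Other cell types of the eye and its surround were less affected. Endothelial genes had 5 of 14 lower, namely Tek, Emcn, Cldn5, Egfl7 and Sox17, a median of -1.13, and no call without E11 replicate 2 or without E12 replicate 1. Kdr, the VEGF receptor that retinal progenitors also use, had 129 and 97.5 CPM at E12 and 91.2 and 97.2 CPM at E11 and was not called. Pigment epithelium genes had 2 of 15 lower, Mitf and Bmp7, a median of -0.55, and sums of 299 and 509 CPM at E12, against 745 and 677 CPM at E11. Mitf, the factor that directs pigment cells, had 16.6 and 27.4 CPM at E12, against 47.3 and 65.4 CPM at E11 (log2 change -1.35, SE 0.28). Without E11 replicate 1 the median was 0.17 with 2 genes called higher and 3 lower, without E12 replicate 2 it was -1.02 with 6 lower, and without E12 replicate 1 it was -0.13 with no call. Pmel, Dct and Tyrp1, which serve pigment granules, were not called. Without E11 replicate 1, 9 endothelial genes were called lower. Macrophage genes had 1 of 14 higher, Aif1, with a median of 0.51, and muscle genes 1 of 8 higher, Myh3, with under 1 CPM in each library and a median of -0.20. The part that unequal amounts of these tissues in the dissected samples had in the changes of other genes was not tested.

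Among genes of the ribosome and of energy metabolism most changes were negative and most genes were not called. Each list still had a larger share called lower than the 3.92% of all genes tested. All 42 ribosomal protein genes had negative changes, 9 were called lower and the median was -0.62. Rplp1, a protein of the ribosomal stalk, had 113 and 221 CPM at E12, against 521 and 667 CPM at E11 (log2 change -1.83, SE 0.24). Rpl36, outside the list, fell by 2.99, with 5.76 and 24.2 CPM at E12 against 100 and 139 CPM at E11. All 37 genes of oxidative phosphorylation were negative too, with 4 called lower and a median of -0.44. The ribosomal calls numbered 4 without E12 replicate 1, 5 without E11 replicate 2 and 14 without either of the other libraries, and those of oxidative phosphorylation 1, 1, 6 and 6. With the library total as the only scaling the ribosomal median was -0.53 and the oxidative phosphorylation median -0.34, and 41 of 42 and 36 of 37 genes were negative.

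Glycolysis and hypoxia genes had 6 of 30 lower, 1 higher and a median of -0.61. Aldoa, a glycolytic aldolase, had 185 and 240 CPM at E12, against 404 and 646 CPM at E11 (log2 change -1.30, SE 0.16). Ldha, Pgk1, Pfkl, Slc16a3 and Slc2a3, enzymes and transporters of sugar or lactate, were the others that fell, at -1.09, -1.01, -1.10, -1.004 and -1.58. Ndrg1, a hypoxia-induced gene that also marks differentiating cells, rose, with 14.9 and 15.4 CPM at E12 against 4.04 and 0.789 CPM at E11 (log2 change 2.64, SE 0.33). Mif, a cytokine, fell by 2.08, with 43.9 and 91.6 CPM at E12 against 207 and 366 CPM at E11. Without E11 replicate 2 no gene of the glycolysis list was called lower, without E12 replicate 1, 2 were, and without E11 replicate 1, 10 were.

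These changes moved with transcript length. Among genes of at least 20 CPM, the 721 whose most abundant transcript was at most 1 kb had a median log2 change of -0.51, with 91 called lower and 8 higher. The 1488 genes of 1 to 2 kb had a median of -0.30, the 3350 of 2 to 4 kb -0.10, and the 3096 longer than 4 kb 0.11, with 69 called higher and 39 lower. Of the 42 ribosomal protein genes 36 were in the shortest class, and the 685 other genes of that class had a median of -0.50, beside -0.62 for the ribosomal list. Between replicates the same classes differed by 0.15 (E12 replicate 2 minus 1) and 0.22 (E11 replicate 2 minus 1) in the shortest class, and by -0.06 and -0.01 in the longest. The part that length or RNA quality had in the ribosomal and metabolic changes was not tested.

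**Figure D5:**
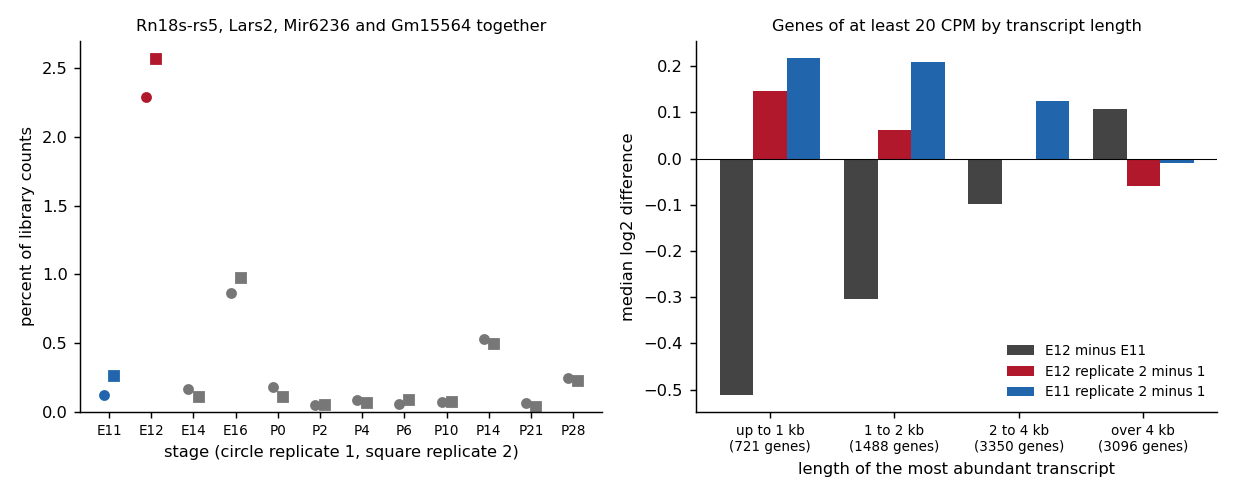
Left, share of each library's counts held by Rn18s-rs5, Lars2, Mir6236 and Gm15564 together at the 12 ages, with circles for replicate 1 and squares for replicate 2. E12 (2.29% and 2.57%) stands above all other ages. Right, median log2 difference of genes of at least 20 CPM by transcript length: E12 minus E11 (grey) runs from -0.51 in the shortest class to 0.11 in the longest, beside the differences between replicates of E12 (red) and E11 (blue).

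Rn18s-rs5, the protein-coding gene Lars2, Mir6236 and Gm15564 together held a larger share of the counts at E12 than at any other age. Rn18s-rs5, annotated as ribosomal RNA, had 9252 and 12140 CPM at E12, against 760 and 1857 CPM at E11. Lars2, the mitochondrial leucyl-tRNA synthetase gene, had 13116 and 13188 CPM at E12, against 440 and 987 CPM at E11 (log2 change 4.204, SE 0.35), and 498 CPM at E14. Mir6236 had 625 and 804 CPM at E12, against 27.6 and 85.9 CPM at E11 (log2 change 3.66, SE 0.47). With the antisense gene Gm15564 they made up 2.29% and 2.57% of the counts at E12, against 0.118% and 0.262% at E11. At E14 the share was back to 0.163% and 0.109%, and at E16 it was 0.865% and 0.974%. Mean levels at E14 and E16 were 840 and 4303 CPM for Rn18s-rs5 and 498 and 4318 CPM for Lars2. Mir6236 and Gm15564 also fell from E12 to E14 and were higher again at E16, so both moved with Rn18s-rs5 over these ages. Whether the counts assigned to Lars2, Mir6236 and Gm15564 came from those genes or from ribosomal RNA was not tested.

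The mature miR-6236 is printed because its gene is among the 14 largest rises, with the seed (bases 2 to 8) in capitals, from RefSeq (GRCm38.p6, chr9:110281353-110281371, plus strand). Libraries of polyadenylated RNA do not measure a mature miRNA, and these counts are of longer RNA assigned to its gene.
mmu-miR-6236: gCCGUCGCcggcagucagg

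Long non-coding classes leaned upward at E12. Of 1313 lincRNA genes 87 were called higher and 14 lower, of 1136 antisense genes 79 and 14, and of 142 sense intronic genes 15 and 1. Malat1, an abundant nuclear RNA, had 1158 and 1454 CPM at E12, against 863 and 232 CPM at E11 (log2 change 1.25, SE 0.38). The sources used here do not say whether reads were counted by strand, so reads of an antisense gene and its partner may be mixed. Gm13301, Gm10600, Gm5859 and Gm13302, near-identical loci on chromosome 4, were all called higher. Gm13301 had 30.7 and 37.6 CPM at E12 and no counts at E11, an at least 681-fold rise against the floor. Mean levels of Gm13301, Gm10600, Gm5859 and Gm13302 were 0, 0.101, 0.694 and 0 CPM at E14. At E16 they were 22.7, 39.1, 23.4 and 4.57 CPM, so the levels did not run in one direction with age. What made them differ was not tested. Of the 25-base words of Gm13301, 53.4% occur in Gm5859 and 51.1% in Gm13302, so single values of these loci are uncertain. Of the mitochondrial genome's genes, 9 of 21 tRNA genes were called lower and none higher, and neither of the 2 rRNA genes was called. Among its mRNAs mt-Atp6, a subunit of ATP synthase, was the one called, with 1114 and 2074 CPM at E12, against 5631 and 5494 CPM at E11 (log2 change -1.80, SE 0.30), and mt-Nd3, a subunit of complex I, had 273 and 396 CPM at E12, against 210 and 196 CPM at E11, and was not called.

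The remaining lists were those of imprinted growth and of immediate early and stress genes. Imprinted growth genes had 1 higher and 1 lower of 15 and a median of -0.45. Plagl1, a zinc finger factor of that network, had 1428 and 1226 CPM at E12, against 857 and 382 CPM at E11 (log2 change 1.10, SE 0.24), and Dlk1, a non-canonical Notch ligand, had 0.660 and 0.577 CPM at E12, against 3.45 and 8.23 CPM at E11 (log2 change -3.23, SE 0.45). Plagl1 was not called without E11 replicate 2 or without E12 replicate 1. Immediate early and stress genes had 3 of 20 lower, Junb, Ier2 and Hspb1, with a median of -0.35, and 7 were lower without E11 replicate 1 and 1 without E11 replicate 2 or E12 replicate 1. Fos was at 0.257 and 0.373 CPM at E12 and 0.328 and 0.412 CPM at E11. Among the other large falls were Hapln1, which links hyaluronan to matrix proteins, at -2.83, Car2, a carbonic anhydrase, at -2.25, and Ece1, which activates endothelins, at -2.16. Ece1 was an exception to the usual order, with 15.9 and 18.4 CPM at E12 against 94.5 CPM in E11 replicate 1 and 59.2 CPM in E11 replicate 2. With summed transcript estimates its change was -0.68 and the call was lost, as it was with voom. Usp50, a ubiquitin protease family member, and Atp5g2, a subunit of ATP synthase, fell by 2.104 and 2.22.

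Levels at E14, from libraries made from more RNA than those of E11 and E12, are set beside the called genes. Of the 129 genes called higher with at least 20 CPM, 99 (76.7%) had an E14 mean above that of E12 and 10 (7.75%) an E14 mean at or below that of E11. Of the 235 called lower, 72 (30.6%) had an E14 mean below that of E12, and 13 (5.53%) one at or above that of E11. The E12 and E11 values chose these genes, and the shares over all genes were not counted, so the counts are a description and do not place E12 in time. Nefm averaged 376 CPM, Ina 399 CPM, Dcx 388 CPM and Pou4f2 152 CPM at E14, each above both E12 libraries, whereas Lars2, at 498 CPM, and Mir6236, at 41.0 CPM, were back within the range of the E11 libraries.

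The authors' deposited table of changes against E11 lists 12718 genes, all tested here. In the authors' deposited table, the change of 12137 of them had the sign found here for E12 over E11, as did all 1426 that were called here, and across genes, which are not independent replicates, the values had r = 0.941 with those here. For Pou4f2, with 0 counts in E11 replicate 2, the authors' deposited table gives 7.10 on the log2 scale, against 3.86 here.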

How the data were processed

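RNA was sequenced from polyadenylated RNA in directional libraries, per the labels' protocols. The authors deposited estimated counts per gene and per transcript, and log2 changes against E11 with p-values, per the file headers. kallisto 0.42.4, edgeR 3.13.9 and build GRCm38.p5 were used, per the submitters' processing notes, without a role for each. Here the counts were rounded and analysed with edgeR 4.0.16, limma 3.58.1 and DESeq2 1.42.0 in R 4.3.3. Of 45594 genes, 21858 passed filterByExpr by stage (minimum count 10). Libraries were scaled by TMM, all 24 libraries entered 1 quasi-likelihood model, which leaves 12 residual degrees of freedom, and p-values were adjusted by Benjamini-Hochberg over all genes. The SE is the absolute log2 change over the square root of F. On simulated counts for this comparison (21858 genes), 91 of 100 genes changed 4-fold and 44 of 100 changed 2-fold were called, with 10 false calls. The simulation gave all libraries of a gene the same spread, without the wider gap seen between the E11 replicates. Changed genes were drawn only from those with higher counts. The false calls therefore do not measure those of the real comparison. Depth gave totals of 24567532 to 35898879 counts in the 24 libraries, and intervals cover counting and replicate error only.

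Named were the 14 largest rises and falls with at least 20 CPM in the higher stage and libraries apart (red cell, lens and ectoderm genes counted separately), up to 4 called genes per list, followed genes, and lens and red cell members. Others were chosen after their values were seen. Members and lists were chosen with earlier results of these data known. Replicate numbers did not pair the libraries. The deposited normalized CPM table was not used. A few genes are not reported here.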

Additional observations from a re-analysis of the deposited data

How the results depend on the processing

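The count of called genes (1749 in all, 892 higher and 857 lower) stayed within 1.5 times under DESeq2, RLE size factors, library size alone, lens and red cell genes taken out, both filters, summed transcript estimates and, chosen after seeing the data, leaving out genes at 0.1% or less of their P28 mean. It was 607 (253 higher, 354 lower) with voom and a weight per stage, 205 (147 and 58) in a test against a 2-fold change, 4918 (2004 and 2914) with no fold threshold, and 7 (6 and 1) with the E11 and E12 libraries only, where 2 residual degrees of freedom are left. Leaving out each of the 4 libraries in turn gave 716 to 3021 in all, 408 to 1603 higher and 308 to 1418 lower, with the lone library of a stage assumed to vary like the others. With a minimum mean of 1 CPM in the higher age, also chosen after seeing the data, 1330 genes were called (609 higher, 721 lower). The lowest counts came without E11 replicate 2 and without E12 replicate 1.

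Of 115 named genes called, 59 were lost without E11 replicate 2, 50 without E12 replicate 1, 14 without E12 replicate 2 and 1 without E11 replicate 1, while 108 were lost with the E11 and E12 libraries only. None of these 115 genes changed sign where an alternative gave a value. With a replicate block 1730 genes were called (886 higher, 844 lower) and 2 named calls were lost. Replicates of 1 number in E12 and E11 deviated with r = 0.04 across genes, so the numbers were not taken as pairs. With 2 libraries an age, tissue amounts at dissection and age cannot be told apart.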

Other observations

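X-linked and Y-linked RNA, outside the comparisons above, differed between the libraries of each age. Xist had 1377 and 3175 CPM at E12, against 1468 and 1887 CPM at E11. Kdm5d had 94.0 and 39.3 CPM at E12, against 77.2 and 26.3 CPM at E11, and Ddx3y 54.4 and 28.7 CPM at E12, against 55.9 and 18.3 CPM at E11. All 4 libraries held RNA of both kinds. None of the 3 genes was called (edgeR, adjusted p = 0.936 for Xist, 0.886 for Kdm5d and 0.981 for Ddx3y), and with standard errors of 2.44, 1.31 and 1.80 on the log2 scale a several-fold change between the ages was not detectable. E12 replicate 1 and E11 replicate 1 had the higher Kdm5d and Ddx3y levels of their ages, which is also the order of several neuronal genes and not that of the lens sums. The part of the mix of sexes in other changes was not tested.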
